A study of Mus musculus with 16 samples.

Results

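The 10 genes described here carry dietary fat and sterol through the absorptive cell of the small intestine: Cd36, Slc27a4, Acsl5, Mogat2, Dgat1, Dgat2, Npc1l1, Scarb1, Abcg5 and Abcg8. They were chosen by name, and each of the 10 has a row among the 20790 genes listed at day 2 and the 20658 genes listed at day 4. In jejunal organoids treated to delete Hnf4a, the mRNA of the acyltransferase Dgat2 rose at both days, to 128% of the control mean at day 2 and 146% at day 4. At day 2, Dgat1, Cd36 and Abcg8 fell and Scarb1 rose. At day 4, Mogat2 and Slc27a4 rose and none of the 10 was called lower. In the main test of whether the effect differed between the days, none of the 10 passed. The calls for Dgat2 and Cd36 held under every alternative run, and each of the others named here was lost under at least 1. Libraries with the same replicate number deviated together at day 4, which the main test left out. With that number as a block, 5 members were called higher and 0 lower, and over all genes 3651 higher and 3565 lower.

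After a meal, fatty acids and monoacylglycerols enter the enterocyte, are activated to acyl-CoA and are rebuilt into triglyceride on the endoplasmic reticulum, first by a monoacylglycerol acyltransferase and then by diacylglycerol acyltransferases. The triglyceride leaves the cell in chylomicrons. Cholesterol and plant sterols enter through Npc1l1 at the brush border, and the Abcg5 and Abcg8 partners pump sterols back into the lumen. Hnf4a is a nuclear receptor that binds many enterocyte genes, among them genes of fat absorption and lipoprotein assembly.

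Messenger RNA was sequenced in 16 libraries from epithelial organoids grown from mouse jejunum. All carried the genotype Villin-CreERT2; Hnf4aflox/flox on the C57BL/6 strain, so the controls held the same floxed alleles and the same Cre transgene. Controls received the vehicle DMSO, and the other organoids received 0.5 µM 4-hydroxytamoxifen (4OHT) for 24 h and were then split. Each treatment was sampled at day 2 and day 4, which made 4 groups of 4 libraries. The Villin promoter confines the tamoxifen-activated recombinase to epithelium, and the organoids hold no host tissue. In the protocol text, organoids were collected 4 days after passaging; the day 2 collection is known from the time point label alone. No group received 4OHT without floxed alleles, so the drug and the deletion cannot be told apart. Nothing in the labels ties the replicates to separate animals or cultures, so each p-value rests on library-to-library spread that could be technical.

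Library totals ran from 63.8 M to 93.3 M counts. Hnf4a, the targeted gene, averaged 1020 ± 31.7 CPM in DMSO and 511 ± 21.2 CPM in 4OHT at day 2 (SD, n = 4), and 967 ± 11.9 and 469 ± 15.3 CPM at day 4. Its transcript thus stood at 50.1% and 48.5% of the control mean; counts per gene do not separate floxed exons from the others. CPM here means counts per 1000000 counts of a library, scaled by TMM factors (trimmed mean of M-values) over all 16 libraries. The 20 enterocyte markers were all expressed, with summed levels from 6067 to 13887 CPM per library. Markers of other cell types were mixed. Summed levels over the libraries were 12.4 to 33.3 CPM for the endothelial list, 13.6 to 22.4 CPM for the macrophage and immune list and 8.12 to 11.4 CPM for the stromal list. They were 437 to 641 CPM for the adipocyte list, mostly Adipor2, and 283 to 2247 CPM for the hepatocyte list, mostly Cps1, a urea cycle enzyme that the small intestine also expresses. Of the 10 endothelial markers, Cdh5, Kdr, Emcn and Plvap had no row in both tables. Of the 12 macrophage and immune markers, Adgre1, Msr1 and Marco had none, and Ptprc, Cx3cr1, Cd3e and Cd79a averaged under 0.1 CPM. Col1a2, Col3a1, Dcn, Lum and Acta2 of the stromal list and Adipoq, Lep, Plin1, Retn, Cfd and Fabp4 of the adipocyte list had none, nor did Serpina1a, Fgb, Fga, Tat and Cyp7a1 of the hepatocyte list.

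The Abcg5 and Abcg8 genes lie head to head on chromosome 17, and the bases between their starts are shown because the pair is transcribed from this interval in opposite directions. Between the RefSeq starts lie 109 bases on GRCm38.p6, at chr17:84683012-84683120, printed on the plus strand with Abcg5 leaving to the left and Abcg8 to the right. RefSeq also lists a start of Abcg8 further left, inside Abcg5, at base 84676302. Capitals mark matches to the GATA site AGATAA, which reads TTATCT on the other strand.
Abcg5-Abcg8 interval: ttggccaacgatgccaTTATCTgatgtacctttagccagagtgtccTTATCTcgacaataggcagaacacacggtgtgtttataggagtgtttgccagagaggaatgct
In human cells this interval is known to be bound by HNF4A and GATA factors. On either strand, AGATAA was found in 11.2% of the 32851 RefSeq promoter windows of mouse (250 bases before to 50 after each start). No match to the HNF4-specific site CAAAGTCCA, present in 0.475% of all windows, or to the HNF4 core CAAAGTC, in 4.44%, was found in the windows of the 6 members that had one (Cd36, Slc27a4, Acsl5, Npc1l1, Abcg5 and Abcg8). Neither were TCACNCCAC, a sterol regulatory element found in 1.24% of windows, or TTTATGG, a CDX site found in 2.75%. The sites named DR1 and DR4, in 0.0396% and 0.0152% of windows, had no match either. The nuclear receptor hexamer AGGTCA, in 16.3% of windows, matched once in Npc1l1, with its first base at position -100 from the start, and once in Cd36, at -228. A match is a description of letters and no evidence of binding.

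Per kilobase of exon, the members spanned a wide range of levels. In DMSO at day 2, Acsl5 stood highest at 192 ± 7.48 CPM per kb and Dgat1 next at 173 ± 18.1 (SD, n = 4), with overlapping libraries. Mogat2 (65.5 ± 8.20), Slc27a4 (59.7 ± 5.43) and Npc1l1 (55.8 ± 4.52 CPM per kb) followed, each overlapping its neighbour. Abcg5 (37.2), Dgat2 (30.2) and Abcg8 (24.8) came below without overlap, and Scarb1 (1.96) and Cd36 (1.93) were lowest and overlapped. In 4OHT at day 2, Dgat2 stood above Abcg5 without overlap, at 38.7 against 31.4 CPM per kb, the reverse of their order in DMSO at day 2. At day 4, Cd36 stood above Scarb1 without overlap in both treatments, at 4.30 against 2.32 CPM per kb in DMSO. That order depends on the lengths used, which count every annotated exon base of a gene: 3590 for Cd36 and 8500 for Scarb1. Before division by length, Scarb1 was the higher at day 4, at 19.7 against 15.4 CPM in DMSO and 21.5 against 14.3 CPM in 4OHT.

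**Figure D1:**
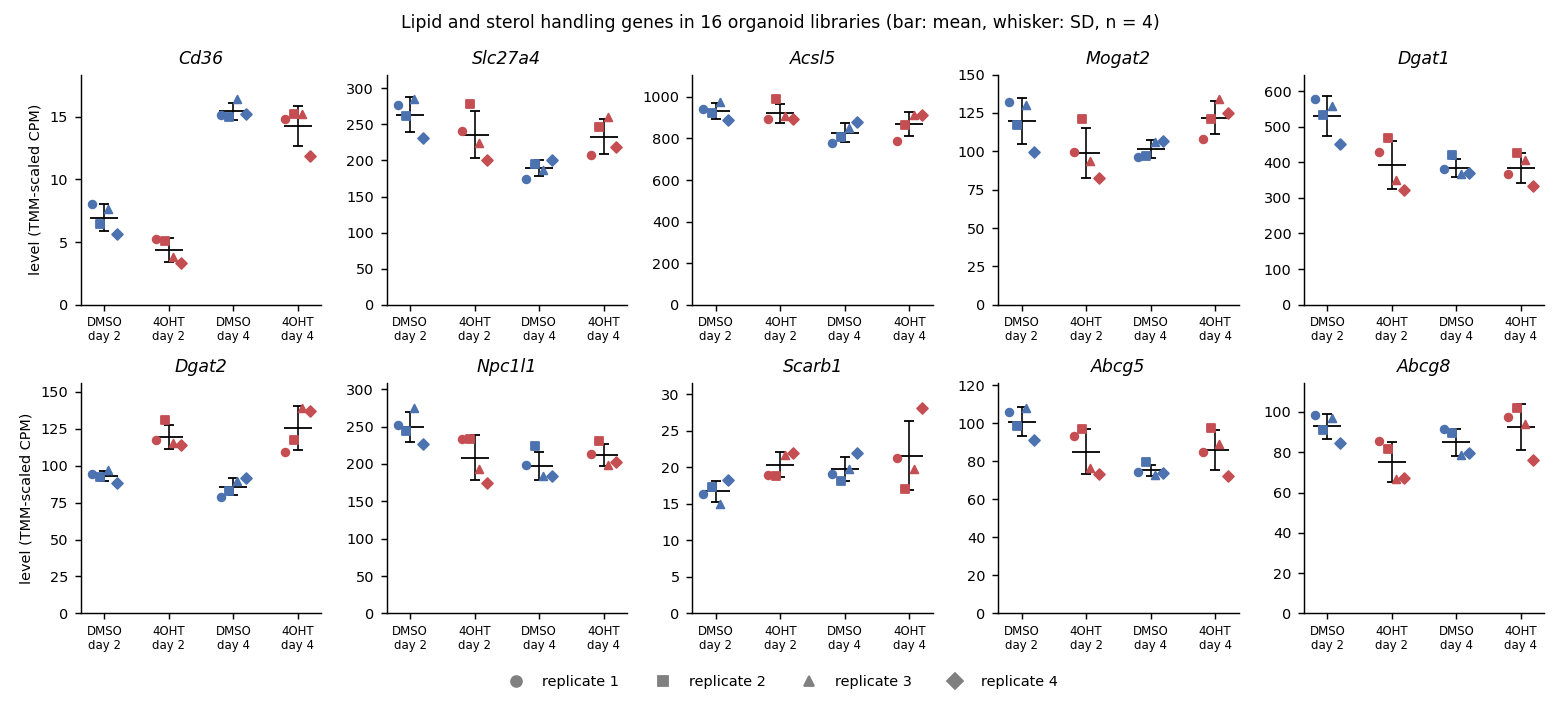
Level of each of the 10 genes in every library (y axis, TMM-scaled CPM, from 0) by group (x axis); points are libraries, with a marker for each replicate number, bars are means and whiskers SD of 4 libraries. Dgat2 is higher in all 4 4OHT libraries than in all 4 DMSO libraries at each day, and Cd36 is higher in every day 4 library, from 11.9 to 16.4 CPM, than in every day 2 library.

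The first comparison asks how these mRNAs differed between 4OHT and DMSO organoids at day 2. At day 2, 2 of the 10 members were called higher in 4OHT and 3 lower, by edgeR's quasi-likelihood test at a Benjamini-Hochberg adjusted p below 0.05 over 15897 genes. Among all genes tested, 16.9% were called higher and 14.3% lower. The members' median log2 fold change was -0.25 and that of all genes tested 0.00. In the authors' deposited table, 2 members were higher and 6 lower at the same threshold of its own edgeR adjusted p. The share of all genes called in that table was not counted at either day. The percentages printed here come from a different run and are no background for it. Leaving out replicate 2 of 4OHT at day 2 raised the count called from 5 to 9, and leaving out replicate 1 of DMSO lowered it to 3. DESeq2 called 7 members, 2 higher and 5 lower.

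Cd36, a fatty acid translocase and scavenger receptor of the plasma membrane (chr5:17781690-17888801, minus strand), had the largest change of the members. Its levels in replicates 1 to 4 of DMSO were 8.01, 6.42, 7.64 and 5.67 CPM at day 2, and those in 4OHT were 5.22, 5.08, 3.84 and 3.30 CPM. Every 4OHT library lay below every DMSO library. The log2 fold change was -0.66 ± 0.15 (SE; edgeR adjusted p = 0.00619), from 241 to 652 reads per library, and no alternative removed the call.

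Slc27a4, the fatty acid transport protein FATP4 with acyl-CoA synthetase activity (chr2:29802634-29817522, plus strand), did not pass the test at day 2. Levels were 277, 261, 285 and 231 CPM in DMSO and 241, 278, 224 and 201 CPM in 4OHT, with overlap. The log2 fold change was -0.15 ± 0.09 (edgeR adjusted p = 0.256). It passed without replicate 2 of 4OHT, at -0.24 (edgeR adjusted p = 0.0461). Acsl5, the long-chain acyl-CoA synthetase that activates fatty acids in the enterocyte (chr19:55251938-55297720, plus strand), stood at 933 ± 36.4 CPM in DMSO and 922 ± 44.8 CPM in 4OHT. Its log2 fold change was -0.01, with an approximate 95% interval (fold change ± 1.96 SE, used throughout) from -0.11 to 0.09. Acsl5 shares 404 exon bases with Zdhhc6 on the opposite strand, and since the strand setting of the counting is not given in the sources used here, reads there are uncertain.

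Mogat2, which adds the second fatty acid to monoacylglycerol in the main route of intestinal triglyceride synthesis (chr7:99219084-99238619, minus strand), gave 132, 117, 130 and 99.6 CPM in DMSO. Its 4OHT libraries gave 99.4, 121, 93.6 and 82.3 CPM. The groups overlapped, and the log2 fold change of -0.27 ± 0.11 was not called (edgeR adjusted p = 0.0967). It was called without replicate 2 of 4OHT (log2 -0.38, edgeR adjusted p = 0.0126) or without replicate 4 of DMSO (-0.35, 0.0398). Mogat2 shares 55 exon bases with the antisense gene Gm45012, where reads are uncertain for the same reason.

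Dgat1 and Dgat2 carry out the same last step, diacylglycerol to triglyceride, with unrelated proteins, and they moved in opposite directions. Dgat1 (chr15:76502015-76511953, minus strand) gave 577, 533, 557 and 451 CPM in DMSO and 430, 468, 350 and 323 CPM in 4OHT. Only replicate 4 of DMSO and replicate 2 of 4OHT overlapped. Dgat1 fell by 0.42 ± 0.11 on the log2 scale (edgeR adjusted p = 0.0138), a call lost without replicate 1 of DMSO (log2 -0.39, edgeR adjusted p = 0.0912). Dgat2 (chr7:99153658-99182719, minus strand) gave 94.2, 92.6, 96.9 and 88.1 CPM in DMSO and 117, 131, 115 and 114 CPM in 4OHT. No libraries of the 2 groups overlapped, and Dgat2 rose by 0.37 ± 0.05 on the log2 scale (edgeR adjusted p = 0.000277). Dgat2 and Mogat2 belong to 1 gene family and are neighbours on chromosome 7, on the same strand, 36364 bases apart with no gene between them; at day 2 their point estimates had opposite signs.

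Npc1l1, the sterol importer that is the target of ezetimibe (chr11:6211013-6230143, minus strand), gave 252, 244, 275 and 227 CPM in DMSO and 233, 234, 193 and 174 CPM in 4OHT. The groups overlapped, and the log2 fold change of -0.25 ± 0.10 was not called by edgeR (adjusted p = 0.0648). The call was made without replicate 1 of 4OHT (log2 -0.32, edgeR adjusted p = 0.0398) or replicate 2 (-0.31, 0.0320), by DESeq2 (-0.26, adjusted p = 0.0349) and with all 16 libraries in 1 fit (-0.26, 0.0446). Scarb1, the HDL receptor SR-BI (chr5:125277087-125341094, minus strand), gave 16.3, 17.3, 14.9 and 18.3 CPM in DMSO and 18.9, 18.8, 21.6 and 22.0 CPM in 4OHT. No 4OHT library reached down to a DMSO library, and Scarb1 rose by 0.29 ± 0.07 on the log2 scale (edgeR adjusted p = 0.0111). With all 16 libraries in 1 fit, which share 1 estimate of the spread, Scarb1 was not called (log2 0.29, edgeR adjusted p = 0.0837).

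Abcg5 (chr17:84658234-84683011, minus strand) and Abcg8 (chr17:84676302-84700333, plus strand) encode the obligate partners of the sterol exporter, and 82 of their exon bases overlap on opposite strands. Abcg8 gave 98.7, 91.1, 96.9 and 84.8 CPM in DMSO and 85.7, 81.5, 66.7 and 67.0 CPM in 4OHT. Replicate 1 of 4OHT lay above replicate 4 of DMSO, and the other 4OHT libraries lay below all of DMSO. Abcg8 fell by 0.30 ± 0.08 on the log2 scale (edgeR adjusted p = 0.0193). That call was lost without replicate 3 of 4OHT (log2 -0.25, edgeR adjusted p = 0.0526) or replicate 1 of DMSO (-0.27, 0.0794). Abcg5 gave 106, 98.3, 108 and 91.1 CPM in DMSO and 93.4, 96.9, 76.2 and 73.5 CPM in 4OHT, with overlap. Its log2 fold change of -0.24 ± 0.09 was not called (edgeR adjusted p = 0.0654), and was called by DESeq2 (log2 -0.25, adjusted p = 0.0383). Leaving out replicate 1 of 4OHT (edgeR adjusted p = 0.0478), replicate 2 of 4OHT (0.0213) or replicate 4 of DMSO (0.0462) also made the call.

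Most members shared their high and low libraries within the day 2 groups. Replicate 4 of DMSO held the lowest level of its group for 9 of the 10 members, replicate 4 of 4OHT the lowest for 8, and replicate 2 of 4OHT the highest for 7. The summed enterocyte markers were lowest in replicate 4 in both groups, at 8412 CPM in DMSO and 6067 CPM in 4OHT, and highest among 4OHT libraries in replicate 2, at 8694 CPM. Across groups, 15 of the 20 enterocyte markers were called lower in 4OHT at day 2 and 0 higher (median log2 fold change -0.50); the summed level ran from 8412 to 10882 CPM in DMSO and from 6067 to 8694 CPM in 4OHT. Goblet markers went the other way, with 6 of 10 called higher and 1 lower. In bulk libraries fewer cells of a type and less RNA per cell cannot be told apart, and the part of cell composition in the members' changes was not tested.

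**Figure D2:**
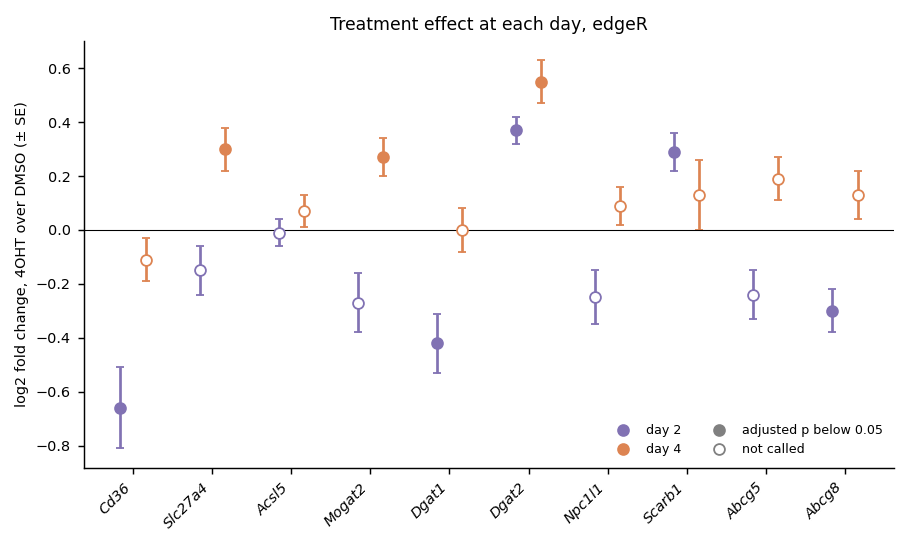
Log2 fold change of 4OHT over DMSO for each member at day 2 and day 4 (y axis; whiskers are SE from edgeR, 8 libraries a day); filled points have an adjusted p below 0.05. Dgat2 is the member filled above 0 at both days, and Cd36, Dgat1 and Abcg8 are filled below 0 at day 2 alone.

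The same question at day 4 gave a different set of calls. Of the 10 members, 3 were called higher and 0 lower over 16040 genes, of which 13.7% were called higher and 11.1% lower; the count at day 4 in the authors' deposited table was also 3 higher and 0 lower. The members' median log2 fold change was 0.13 and that of all genes tested -0.01. Libraries with the same replicate number deviated together at day 4 (correlations of 0.63 to 0.81), and a fit with that number as a block called 5 members higher. Calls over all genes rose with the block too, to 3651 higher and 3565 lower, from 2191 and 1776 without it. The count of members was also 5 without replicate 4 of 4OHT, and 1 without replicate 3 of 4OHT or without replicate 1 of DMSO.

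Dgat2 gave 78.9, 83.1, 89.6 and 91.7 CPM in DMSO and 109, 117, 139 and 137 CPM in 4OHT at day 4. All 4OHT libraries lay above all DMSO libraries. Dgat2 rose by 0.55 ± 0.08 on the log2 scale (edgeR adjusted p = 0.00125), and the call stayed under each of the 14 alternatives at either day. Mogat2 gave 96.2, 96.7, 106 and 107 CPM in DMSO and 108, 121, 134 and 125 CPM in 4OHT. The lowest 4OHT library lay just above the highest DMSO library, and Mogat2 rose by 0.27 ± 0.07 on the log2 scale (edgeR adjusted p = 0.0175). Its call was lost without replicate 3 of 4OHT (edgeR adjusted p = 0.0597), replicate 1 of DMSO (0.0579) or replicate 2 of DMSO (0.0511), and with all 16 libraries in 1 fit (0.0691). With the replicate number as a block Mogat2 was called (log2 0.26, edgeR adjusted p = 0.000159).

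Slc27a4 gave 175, 195, 187 and 201 CPM in DMSO and 207, 246, 260 and 219 CPM in 4OHT at day 4, without overlap. It rose by 0.30 ± 0.08 on the log2 scale (edgeR adjusted p = 0.0161). Its call was lost without replicate 3 of 4OHT (edgeR adjusted p = 0.0541), replicate 1 of DMSO (0.0540) or replicate 3 of DMSO (0.0511). With the replicate number as a block Slc27a4 was called (log2 0.30, edgeR adjusted p = 0.0014). Acsl5 gave 777, 809, 851 and 877 CPM in DMSO and 787, 864, 915 and 913 CPM in 4OHT, with overlap (log2 fold change 0.07, interval -0.06 to 0.20). Cd36 gave 15.1, 15.0, 16.4 and 15.2 CPM in DMSO and 14.8, 15.2, 15.2 and 11.9 CPM in 4OHT. The Cd36 groups overlapped, and the log2 fold change of -0.11 had an interval from -0.27 to 0.05.

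Dgat1, lower at day 2, stood at 384 ± 24.6 CPM in DMSO and 383 ± 41.6 CPM in 4OHT at day 4. The log2 fold change was 0.00 with an interval from -0.16 to 0.15 (edgeR adjusted p = 0.986). Both groups lay near the level of 4OHT at day 2, 393 ± 67.7 CPM.

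The sterol exporter genes and the importer were higher in 4OHT than in DMSO in most pairs of same-numbered day 4 libraries. Abcg5 gave 74.5, 79.5, 72.5 and 74.0 CPM in DMSO and 85.1, 97.2, 88.9 and 72.3 CPM in 4OHT, higher in 3 of 4 pairs. Its log2 fold change was 0.19 ± 0.08 (edgeR adjusted p = 0.105), and 0.19 with an adjusted p of 0.0181 when the replicate number was a block. Npc1l1 gave 199, 224, 184 and 184 CPM in DMSO and 214, 231, 198 and 203 CPM in 4OHT, higher in 4 of 4 pairs though the groups overlapped. Its log2 fold change was 0.09 ± 0.07 (edgeR adjusted p = 0.399), and 0.10 with an adjusted p of 0.0235 with the block. Abcg8 gave 91.6, 89.8, 78.6 and 79.4 CPM in DMSO and 97.7, 102, 94.2 and 76.0 CPM in 4OHT, higher in 3 of 4 pairs (log2 0.13 ± 0.09, edgeR adjusted p = 0.352). With the block Abcg8 was not called (log2 0.12, edgeR adjusted p = 0.0633).
Without replicate 4 of 4OHT, the lowest of its group for both Abcg genes, Abcg5 was called higher (log2 0.27, edgeR adjusted p = 0.00690) and so was Abcg8 (0.22, 0.0344). Scarb1 gave 19.0, 18.1, 19.8 and 22.0 CPM in DMSO and 21.3, 17.0, 19.8 and 28.1 CPM in 4OHT; the groups overlapped and the log2 fold change of 0.13 had an interval from -0.13 to 0.39. Of the enterocyte markers, 4 of 20 were called higher and 1 lower at day 4 (median log2 fold change 0.00), with summed levels of 11021 to 11984 CPM in DMSO and 10368 to 13887 CPM in 4OHT.

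Whether the effect of 4OHT differed between the days was tested as an interaction over all 16 libraries. None of the 10 members passed edgeR's adjusted p of 0.05, where 1.20% of 16597 genes were called higher and 0.476% lower. At an unadjusted p below 0.05, 7 members had a higher effect at day 4 than at day 2 and 0 a lower one, against 10.5% of all genes higher. The members' median difference was 0.43 on the log2 scale and that of all genes 0.01. The shift was not particular to the members: the median of the enterocyte markers was 0.57, with 1 of 20 called higher. Chylomicron assembly genes had a median of 0.24, with 3 of 20 called higher. Medians of the other pathway lists described below ran from -0.2 to 0.18. The part of the enterocyte markers' shift in that of the members was not tested. The 2 treatment effects use separate libraries. DESeq2 called 4 members (Mogat2, Slc27a4, Abcg5 and Abcg8), all with a higher effect at day 4. Over all genes DESeq2 called 595 higher and 241 lower, against 199 and 79 by edgeR.
Mogat2 had the smallest p, with a difference of 0.54 ± 0.15 (edgeR adjusted p = 0.0706), then Slc27a4 with 0.45 (0.0794) and Abcg5 with 0.44 (0.0901). The estimate for Cd36 was 0.56 ± 0.19 (edgeR adjusted p = 0.125), for Abcg8 0.43 (0.109), for Dgat1 0.43 ± 0.15 (0.156) and for Npc1l1 0.35 (0.166). For Dgat2 it was 0.19 with an interval from -0.01 to 0.39, for Acsl5 0.09 (-0.08 to 0.25) and for Scarb1 -0.16 (-0.48 to 0.17). Single libraries moved the count: 3 members were called without replicate 2 of 4OHT at day 2 or without replicate 4 of DMSO at day 2, and 2 without replicate 4 of 4OHT at day 4. Over all genes those runs called 538, 727 and 481, against 278 in the main run. The planned block for the replicate number at both days called 7 members, all with a higher effect at day 4 (edgeR adjusted p from 0.00506 for Mogat2 to 0.0183 for Npc1l1), although the numbers did not pair the libraries of day 2. Over all genes the planned block called 1170 higher and 680 lower. A block for the replicate number at day 4 alone, chosen after seeing the data, called Abcg8 (log2 0.42, edgeR adjusted p = 0.0441).

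The change from day 2 to day 4 in DMSO gives the course of these mRNAs in control organoids. Over 16088 genes, 2 of the 10 members were called higher at day 4 and 6 lower, where 28.7% of genes were called higher and 24.8% lower. The members' median log2 change was -0.19 and that of all genes tested 0.03. Each day was deposited as its own table, and whether the libraries of the 2 days were made or sequenced together is not given in the sources used here, so day and any such batch cannot be told apart. Without replicate 3 of DMSO at day 2 the count of calls was 5.

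Cd36 rose from 6.94 ± 1.08 to 15.4 ± 0.625 CPM (SD, n = 4), a log2 change of 1.17 ± 0.10 (edgeR adjusted p = 6.8e-07). All day 4 libraries lay above all day 2 libraries. Cd36 is also expressed by endothelial cells. Of the 10 endothelial markers, 6 had rows, and 3 of these were called higher at day 4 and 0 lower. Their summed level was 14.1 to 15.8 CPM in the day 2 libraries and 28.4 to 33.3 CPM in those of day 4, and their part in the result was not tested. Lyve1, Esam and Prox1 made up most of that sum, while Pecam1 averaged 0.469 CPM at day 2 and 0.420 CPM at day 4. Tek averaged 0.323 and 0.300 CPM at these days, and Tie1 0.169 and 0.108 CPM. Of the 20 enterocyte markers, 9 were called higher and 7 lower at day 4. Scarb1 rose by 0.25 ± 0.08 on the log2 scale (edgeR adjusted p = 0.0144), a call lost without replicate 3 of DMSO at day 2 (0.0628), without replicate 4 of DMSO at day 4 (0.0638) and with all 16 libraries in 1 fit (0.0964).

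Slc27a4 fell by 0.46 ± 0.07 on the log2 scale (edgeR adjusted p = 9.11e-05), Dgat1 by 0.45 ± 0.07 (0.000242), Abcg5 by 0.41 ± 0.06 (7.79e-05) and Npc1l1 by 0.32 ± 0.07 (0.0026), each without overlap between the days. Mogat2 fell by 0.23 ± 0.08 (edgeR adjusted p = 0.0278) and Acsl5 by 0.16 ± 0.06 (0.0342). The Mogat2 call was lost without replicate 1 (edgeR adjusted p = 0.0687) or 3 (0.0647) of day 2 or replicate 1 (0.0793) or 2 (0.0548) of day 4, and with all 16 libraries in 1 fit (0.0618). That for Acsl5 was lost without replicate 3 of day 2 (edgeR adjusted p = 0.0605) or replicate 1 (0.117), 2 (0.0513) or 3 (0.0531) of day 4. Abcg8 and Dgat2 were not called, at log2 -0.12 (edgeR adjusted p = 0.156; -0.17 and 0.0447 without replicate 4 of day 2) and -0.10 (0.153).

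In 4OHT the same span of days gave 3 members higher and 0 lower, over 15962 genes of which 25.9% were called higher and 23.5% lower. Cd36 rose from 4.36 ± 0.939 to 14.3 ± 1.61 CPM, a log2 change of 1.72 ± 0.15 (edgeR adjusted p = 1.27e-05), again without overlap. The summed endothelial markers were 12.4 to 14.3 CPM in the day 2 libraries and 27.3 to 28.9 CPM in those of day 4. Of the 6 tested, 3 were called higher and 0 lower, and Lyve1, Esam and Prox1 again made up most of the sum. Pecam1 averaged 0.404 and 0.540 CPM, Tek 0.369 and 0.408 CPM and Tie1 0.166 and 0.122 CPM. The part of these markers was not tested. Of the 20 enterocyte markers, 13 were called higher and 3 lower over these days in 4OHT, and their part in the members' changes was not tested. Mogat2 rose by 0.30 ± 0.11 (edgeR adjusted p = 0.0436) and Abcg8 by 0.31 ± 0.11 (0.0433). Both calls were lost without replicate 3 or 4 of 4OHT at day 2 or replicate 2 or 3 of 4OHT at day 4, and the count was then 1. Mogat2 was also lost without replicate 1 of 4OHT at day 2 (edgeR adjusted p = 0.0827) or replicate 4 of 4OHT at day 4 (0.0771) and with no filter on low counts (0.0520), and Abcg8 without replicate 1 of 4OHT at day 4 (0.112). Dgat1, Npc1l1, Abcg5 and Slc27a4, which fell over these days in DMSO, had log2 changes of -0.03, 0.03, 0.02 and -0.01 in 4OHT. Dgat2, Scarb1 and Acsl5 had 0.08, 0.09 and -0.08.

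Ratios of reads within a library do not depend on library scaling, and 3 were compared over 4 pairs of groups by exact two-sided permutation tests, where 4 against 4 libraries cannot go below p = 0.0286. The Dgat2 to Dgat1 ratio was 0.163, 0.174, 0.174 and 0.195 in DMSO and 0.272, 0.279, 0.330 and 0.353 in 4OHT at day 2. At day 4 it was 0.207, 0.198, 0.244 and 0.249 in DMSO and 0.296, 0.274, 0.342 and 0.412 in 4OHT. All 4OHT libraries lay above all DMSO libraries at each day. The log2 ratio differed by 0.80 ± 0.11 at day 2 and 0.55 ± 0.15 at day 4 (SE, n = 4; exact permutation p = 0.0286 for each, adjusted p = 0.0686 over 12 tests).

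The Abcg5 to Abcg8 ratio lay between 0.814 and 1.19 in the 16 libraries. In DMSO it was 1.08, 1.08, 1.11 and 1.07 at day 2 and 0.814, 0.886, 0.922 and 0.933 at day 4, without overlap. The log2 ratio was lower at day 4 by a difference of -0.29 in DMSO and -0.28 in 4OHT (exact permutation p = 0.0286 and adjusted p = 0.0686 for each). Treatment moved it by 0.06 at day 2 and 0.07 at day 4 (exact permutation test, adjusted p = 0.245 and 0.343). The importer to exporter ratio, Npc1l1 over Abcg5 plus Abcg8, lay between 1.08 and 1.37 in the 16 libraries. Its log2 value differed between treatments by 0.01 ± 0.04 at day 2 and -0.06 ± 0.08 at day 4 (exact permutation test, adjusted p = 0.657 and 0.583).

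**Figure D3:**
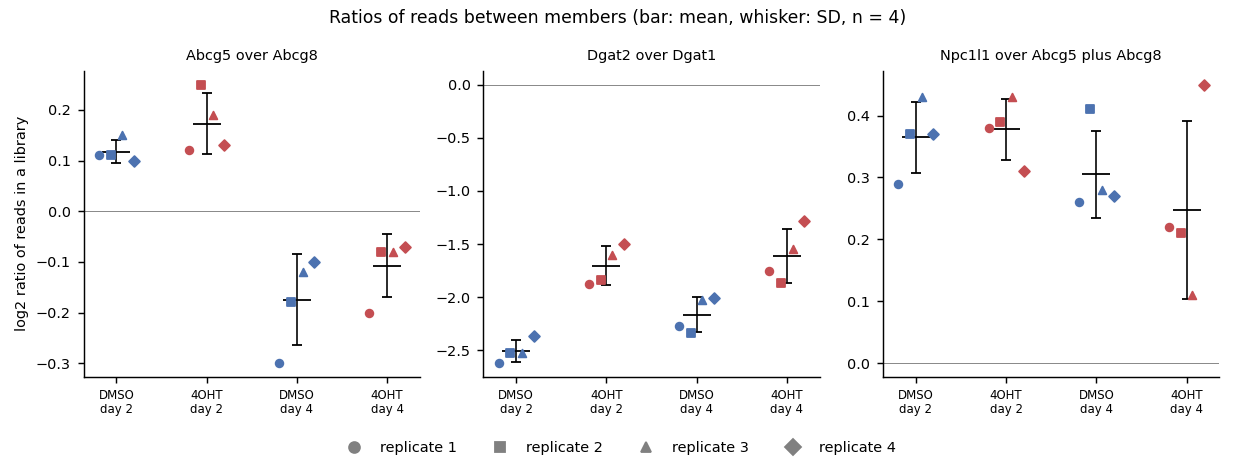
Log2 ratio of reads within each library (y axes differ between panels) for Abcg5 over Abcg8, Dgat2 over Dgat1, and Npc1l1 over Abcg5 plus Abcg8, by group; points are libraries, bars means and whiskers SD (n = 4). The Dgat2 to Dgat1 ratio is higher in 4OHT at both days, and the Abcg5 to Abcg8 ratio is above 0 at day 2 and below 0 at day 4.

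Genes around these members in the same pathways were counted from 8 lists. Fabp1, Fabp2, Apoa1 and Apoa4 are also among the enterocyte markers, and Cidec, Lipe and Pparg among the adipocyte markers. Some genes, such as Abcg1, Lpcat3 and Srebf2, are shared between pathway lists, so the counts of the lists are not separate. Of fatty acid uptake and activation genes, 6 of 16 tested were called higher and 6 lower at day 2, and 5 higher and 4 lower at day 4. Fabp1, the liver-type fatty acid binding protein, fell by 0.56 ± 0.13 on the log2 scale at day 2 (edgeR adjusted p = 0.00604) and Fabp5 rose by 0.85 ± 0.06 (1.78e-06). Fabp2, the intestinal form, had a log2 fold change of -0.19 at day 2 (edgeR adjusted p = 0.224) and rose by 0.40 ± 0.10 at day 4 (0.0153).

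The next list joins the glycerol phosphate route, the parallel path to triglyceride, with other acyltransferases that lie outside it. Of its genes, 7 of 18 were higher and 3 lower at day 2, and 6 higher and 1 lower at day 4. Gk, glycerol kinase, rose from 39.2 ± 3.32 to 80.9 ± 4.11 CPM at day 2 (log2 1.05, edgeR adjusted p = 4.93e-07) and from 22.7 ± 1.67 to 40.1 ± 5.74 CPM at day 4 (0.82, 0.000289). Agpat2, an acylglycerolphosphate acyltransferase, rose at both days (log2 0.22 and 0.38; edgeR adjusted p = 0.0116 and 0.00463). Gpd1, which makes glycerol phosphate, fell by 0.48 ± 0.10 at day 2 (edgeR adjusted p = 0.00317) and had a log2 fold change of -0.01 at day 4.

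Of lipid droplet and lipolysis genes, 3 of 17 were higher and 2 lower at day 2, and 5 of 19 higher and 1 lower at day 4. Cidec, which enlarges lipid droplets, rose at both days (log2 0.38 and 0.79; edgeR adjusted p = 0.0017 and 0.00517), and Abhd5, the activator of triglyceride lipase, did so too (0.42 and 0.49; 0.000487 and 0.0065). Chylomicron assembly genes were mostly lower among the calls at day 2, with 1 of 20 higher and 7 lower, and 4 higher and 0 lower at day 4. Apoc2 fell by 0.65 ± 0.11 at day 2 (edgeR adjusted p = 0.00106) and stood at a log2 fold change of 0.13 at day 4 (0.573).

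Other sterol uptake, trafficking, esterification and efflux genes counted 11 of 31 higher and 6 lower at day 2, and 11 higher and 2 lower at day 4. Among them Stard5, a sterol transfer protein, rose at both days (log2 0.55 and 0.29; edgeR adjusted p = 8.98e-06 and 0.0037). Of 25 cholesterol synthesis and SREBP2 target genes, 1 was higher and 3 lower at day 2, and 0 higher and 1 lower at day 4. Dhcr7, which makes cholesterol in the last step of its synthesis, fell by 0.20 ± 0.05 on the log2 scale at day 2 (edgeR adjusted p = 0.00576) and had a log2 fold change of -0.25 at day 4 (0.0583).

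LXR targets other than the members, a set switched on by oxysterols, counted 3 of 11 higher and 1 lower at day 2 and 2 of 12 higher and 0 lower at day 4. Abcg1 was low and rose from 0.602 ± 0.152 to 1.48 ± 0.0943 CPM at day 2 (log2 1.30, edgeR adjusted p = 0.000116). Of lipid-sensing transcription factors and cofactors, 4 of 27 were higher and 7 lower at day 2, and 6 higher and 2 lower at day 4, with Hnf4a itself among the lower at both days. Pparg rose at both days (log2 0.69 and 0.66; edgeR adjusted p = 1.27e-06 and 0.00603), as did Ppard (0.40 and 0.39; 1.19e-05 and 0.0003). Hnf4g, the paralog of Hnf4a, stood at a log2 fold change of 0.21 at day 2 (edgeR adjusted p = 0.131) and rose by 0.51 ± 0.06 at day 4 (0.000235). Medians of log2 fold change over the 8 lists ran from -0.15 to 0.09 at day 2 and from -0.11 to 0.12 at day 4.

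**Figure D4:**
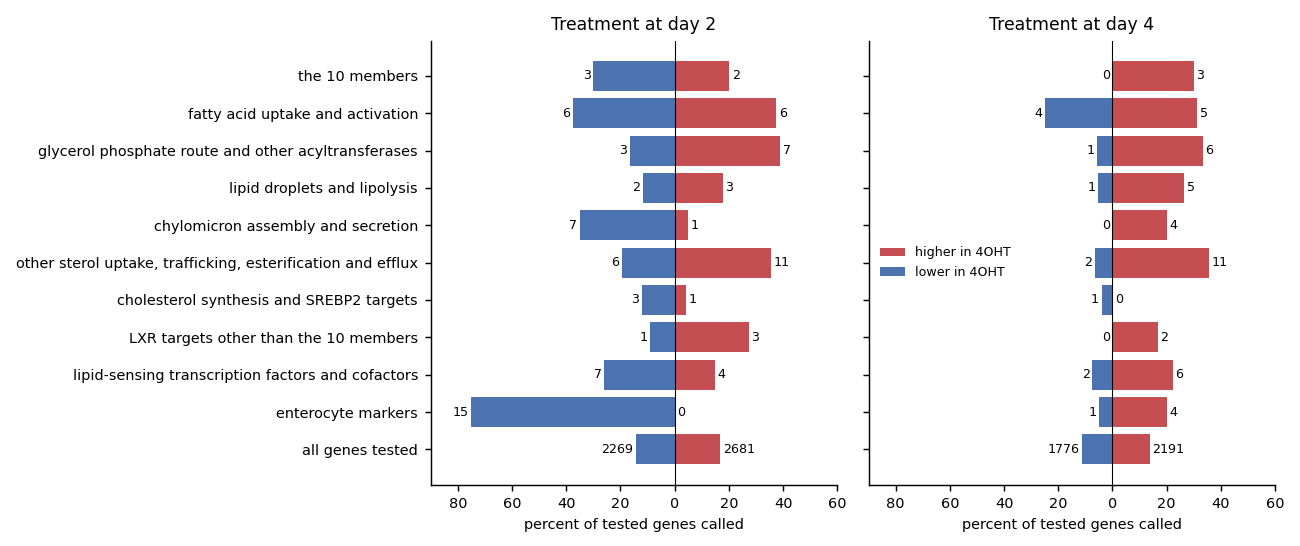
Percent of tested genes called higher (right of 0) and lower (left of 0) in 4OHT by edgeR at an adjusted p below 0.05, for the 10 members, 8 pathway lists, the enterocyte markers and all genes, at day 2 and day 4; numbers beside the bars are gene counts. At day 2, 15 of 20 enterocyte markers and 7 of 20 chylomicron genes are called lower, and at day 4 these are 1 and 0.

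The genes whose levels across the 16 libraries ran closest to each member were found by the root mean square difference of log2 CPM, each gene centred on its own mean, among 9396 genes. Soat2, the cholesterol esterifying enzyme of enterocytes, was closest to Dgat1 (0.063, against a spread of 0.248 for Dgat1 itself) and was the next after Adamtsl5 for Abcg5 (0.068 and 0.0629). Fam109a (0.0811) and Prpsap1 (0.0834) followed for Dgat1, and Gna11 (0.0705) for Abcg5. Closest to Cd36 were Reg3a (0.107), Oat (0.126) and Cyp2d26 (0.134), against a spread of 0.785 for Cd36. Oat went from 743 and 461 CPM in DMSO and 4OHT at day 2 to 1601 and 1395 CPM at day 4.
Cdhr5 (0.067), Acbd4 (0.072) and Acot11 (0.0809) were closest to Slc27a4, and Crat (0.079), Sult1b1 (0.081) and Lrrc19 (0.0894) to Mogat2. Closest to Dgat2 were Il13ra1 (0.0896), Abhd3 (0.101) and S100a1 (0.103). Hectd3 (0.0734), Coro7 (0.0793) and Spata2 (0.0806) were closest to Npc1l1, and Hpgd (0.0798), Slc43a2 (0.0802) and Lrig3 (0.0809) to Abcg8. Ly6e (0.0838), Fam189a2 (0.0903) and Arhgef40 (0.105) were closest to Scarb1, and Minpp1 (0.0389), Atl2 (0.0413) and Hbs1l (0.0435) to Acsl5. The values are descriptions over libraries that share groups and days.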

How the data were processed

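The 16 organoid samples gave poly(A) libraries made with a directional kit, per the labels' protocols. STAR 2.4.0f1, bcl2fastq 1.8.4 and genome build GRCm38 are named in the submitters' processing notes. How reads were assigned to genes and strands, and with which annotation, is not given in the sources used here. The authors deposited 1 table per day with whole-number read counts per gene, and, per the file headers, a log2 fold change and edgeR adjusted p-values, which are printed only as counts of calls.

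On the deposited counts, edgeR 4.0.16 in R 4.3.3 was run with TMM scaling, filterByExpr and its robust quasi-likelihood test, and p-values were adjusted by Benjamini-Hochberg over all genes tested and called at 0.05. All 10 members passed the filter. Treatment and time comparisons used the 8 libraries concerned, the interaction all 16. SE is the log2 fold change over the square root of F. Levels use the 19964 genes in both tables. Ratios had 0.5 added to each count. The procedure was tested on simulated data. There 14 of 168 calls were false at day 2, 5 of 136 at day 4 and 5 of 119 for the interaction. Changes of 1.25-fold were recovered at 50%, 26% and 14%, and those of 1.5-fold at 74%, 56% and 48%. Alternatives were DESeq2 1.42.0, RLE size factors, other filters, the replicate block, all libraries in 1 fit and each library left out.

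Every pair of libraries within a group (24 pairs) differed by more than counting noise. The 63.8 M to 93.3 M counts per library set the counting noise, and spread between libraries came on top of it. Without molecular identifiers, counting noise is a lower limit of the error. Correlations of same-numbered libraries' deviations over 9690 genes were 0.63 to 0.81 at day 4, with 8 of 8 libraries closest to their own number, so the numbers were taken as pairs at day 4 from the data, as the labels do not state it. At day 2 (-0.11 to 0.47) and across days they did not pair.

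All members are named, with Hnf4a; from each pathway list up to 3 genes by smallest p at each day and 3 by highest level could be named, and for each member the 3 nearest genes. The members and lists were chosen with earlier results of these data known. Positions are from GENCODE M21 (GRCm38, 1-based) and sequences from RefSeq GRCm38.p6.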

Additional observations from a re-analysis of the deposited data

Results flagged for a closer look

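In 4 of the 40 sets of 4 libraries (10 members, 4 groups), the end library lay far from the other 3 by Dixon's test; chance gives about 1 in 20. Dgat2 in replicate 2 of 4OHT at day 2 stood at 131 CPM, against 114 to 117 CPM in the others. Acsl5 in the same library stood at 989 CPM, against 895 to 906 CPM. Cd36 in replicate 3 of DMSO at day 4 stood at 16.4 CPM, against 15.0 to 15.2 CPM. Cd36 in replicate 4 of 4OHT at day 4 stood at 11.9 CPM, against 14.8 to 15.2 CPM. Without these libraries Dgat2 remained called at day 2 and Cd36 remained uncalled at day 4.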

How the results depend on the processing

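No called result changed direction under any alternative run. The ratio tests say nothing of stability, since 4 against 4 libraries could hardly pass the adjusted threshold. With the replicate block, calls over all genes at day 4 rose from 3967 to 7216, and members called from 3 to 5. At day 2, where numbers did not pair libraries, the block called 8 members in place of 5, and over all genes 4916 in place of 4950. The interaction called 278 genes and 0 members; DESeq2 called 836 and 4, the replicate block 1850 and 7, and the replicate block at day 4 alone, added after seeing the data, 965 and 1. The cause was not tested. Leaving out each library in turn gave 94 to 727 genes and 0 to 3 members for the interaction. It gave 3 to 9 members for treatment at day 2, 1 to 5 at day 4, 5 to 9 for the days in DMSO and 1 to 3 for the days in 4OHT. Of the single-gene values under alternatives, Hnf4a included, 781 stayed called or stayed uncalled, 41 gained a call and 36 lost one. Cd36 had the fewest reads of the members, 241 to 1412 per library.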
